A study of Mus musculus with 2 samples.

Results

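The genes described here are those of the interferon response and of antigen presentation by class I molecules of the major histocompatibility complex. A list of 34 gene names was matched to the gene names of the probes on a mouse expression array, and all 34 were found among 29913 genes by name. They comprise 25 genes of the interferon response (transcription factors, RNA sensors and induced antiviral genes) and 9 genes that make, load and display class I molecules. All 34 were bright enough to be tested, as were 21598 genes in all.

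The RNA came from embryonic mouse ureters (wildtype NMRI strain, E12.5, sex undetermined) that had been kept as whole explants on filter membranes for 18 h. The BIO group received 10 µM BIO, an inhibitor of the kinase GSK3 that is used to activate canonical WNT signaling, and the control group received DMSO, the solvent in which BIO was also given, at 2 parts per 1000. Medium without serum was used for both groups, and each RNA was made from a pool of ureters. There were 2 arrays, each with control RNA in one color and BIO RNA in the other, and the dyes were exchanged between them, with BIO in red in replicate 1 and in green in replicate 2. Each array therefore gave 1 ratio of BIO over control per gene, and n is 2 throughout.

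Type I and type II interferons are secreted proteins that bind receptors coupled to Janus kinases. The activated STAT and IRF transcription factors then bind short DNA elements, called ISRE and GAS, in the promoters of the induced genes. The products of these genes interfere with virus entry, translation and RNA stability, and class I molecules carry peptides from the cell interior to the cell surface for inspection by T cells. In embryos without infection many of these genes are known to be read at a low, tonic level, and macrophages, which settle in most embryonic organs, are known to express several of them strongly.

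The promoters of the genes were inspected first, because such elements are the usual way in which interferon reaches these genes. A window from 250 bases before to 50 bases after the transcription start site was available from RefSeq (GRCm38.p6) for 30 of the 34 genes. The others were Usp18, Mx1, Mx2 and Tap2. Both strands were searched for 3 sets of letters. The core of the ISRE, GAAANNGAA, was found in 14 of 30 genes, against 9.76% of 27025 mouse genes with such windows. The shorter core bound by IRF factors, AANNGAAA, whose letters overlap the ISRE core, was found in 17 of 30 genes, against 26.7% of all. The GAS letters TTCNNNGAA, which read the same on both strands, were found in 7 of 30 genes, against 9.55% of all. A match of letters is a description and does not show that a factor binds.

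The stretches below carry the matches of those genes on which the results turn, upstream of the start site, with the matched letters in capitals and up to 12 flanking bases. The ISRE core is capitalized in Ifit1 (chr19:34640768-34640825, plus strand), Ifit3 (chr19:34583362-34583447, plus strand), Isg15 (chr4:156200864-156200908, minus strand), Oas1a (chr5:120907526-120907557, minus strand), Rsad2 (chr12:26456551-26456583, minus strand) and Ifitm2 (chr7:140955987-140956019, minus strand). The IRF core is capitalized in H2-K1 (chr17:34000418-34000449, minus strand) and H2-D1 (chr17:35262932-35262963, plus strand), and the GAS letters in Irf8 (chr8:120736175-120736225, plus strand). Each sequence is written 5′ to 3′ on the strand of its gene.
Ifit1: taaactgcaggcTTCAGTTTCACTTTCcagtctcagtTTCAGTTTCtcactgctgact
Ifit3: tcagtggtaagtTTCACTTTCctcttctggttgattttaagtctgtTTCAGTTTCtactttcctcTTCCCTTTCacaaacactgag
Isg15: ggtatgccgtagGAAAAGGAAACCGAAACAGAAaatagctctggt
Oas1a: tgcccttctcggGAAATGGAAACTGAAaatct
Rsad2: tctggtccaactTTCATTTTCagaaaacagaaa
Ifitm2: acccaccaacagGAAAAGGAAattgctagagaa
H2-K1: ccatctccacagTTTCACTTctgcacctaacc
H2-D1: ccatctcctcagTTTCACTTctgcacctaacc
Irf8: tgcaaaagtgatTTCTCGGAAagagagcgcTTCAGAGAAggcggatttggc

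Ifit1, Ifit3 and Isg15 had 3 ISRE cores each, in Isg15 and at the first site of Ifit1 in overlapping register. The stretches of the class I genes H2-K1 and H2-D1 were identical at 31 of 32 bases. The plot of motif positions gives all matches relative to the start site.

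**Figure D1:**
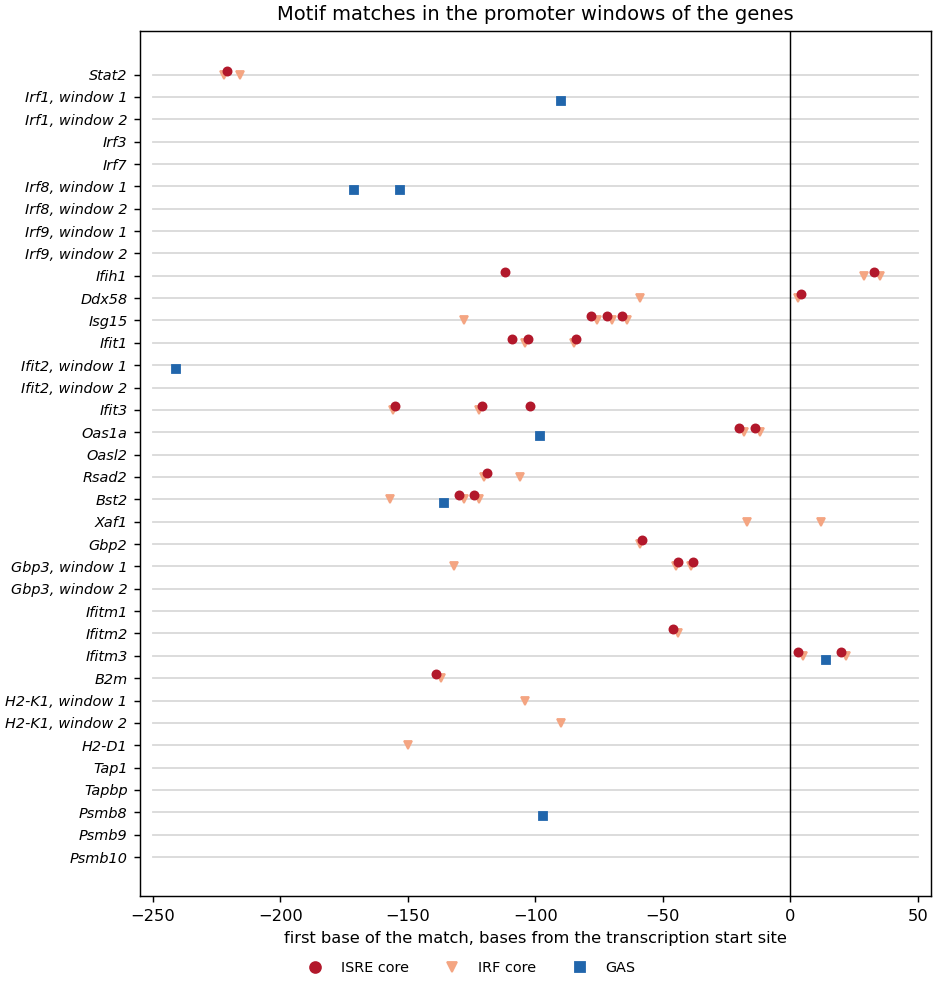
Positions of the letters of the ISRE core (circles), the IRF core (triangles) and GAS (squares) in the promoter windows of the 30 genes with a window. The horizontal axis gives the first base of each match in bases from the transcription start site, and a gene with more than 1 start site has a line for each. Circles are found in 14 genes, triangles in 17 and squares in 7.

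Levels are given as processed signals, the intensities that the scanner software had corrected for background and dye, averaged over the spots of a probe. Ratios are log2 ratios of BIO over control, made separately from the uncorrected spot intensities with a background correction whose offset pulls the ratios of weak signals toward 0, so a ratio need not equal that of the processed signals. A gene is called as changed when its adjusted p in the limma test was below 0.05, and p values are printed for the genes on which the results turn. The SE is that of limma, moderated by drawing the variance of each probe toward a value common to all tested probes. It can therefore be smaller or larger than the spread of a gene's own ratios. The alternatives named below are ratios of the processed signals, an offset of 16 in place of 50, centering on the median of each array in place of the intensity-dependent loess curve, no filter on dim probes, and a table of scores that the authors deposited.

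After 18 h with BIO, 7 of the 34 genes were lower and 0 were higher when the limma p adjusted over all tested probes had to be below 0.05 (n = 2 arrays). The genes that fell were Rsad2, Mx2, H2-K1, H2-D1, Ifitm2, Irf8 and Tapbp. Over all genes tested the same test called 14.8% as lower and 9.14% as higher, so the share of the listed genes that fell, 7 of 34, is to be read against the former. With the unadjusted p in its place, 13 genes were lower and 3 were higher, the latter being Ifih1, Ifit2 and Gbp3, beside 21.5% and 15.2% of all genes tested. The count of genes that fell was 2 with the scanner software's own processed signals and 2 with the deposited score table. These settings called 8.92% and 15.1% of all genes tested in either direction. The count of genes that rose was 0 to 2 over the other ways of making and testing the ratios. The RNA was that of whole explants, in which fewer cells of a type and less RNA per cell cannot be told apart.

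The median log2 ratio of the 34 genes was -0.15, against -0.01 over all genes. It was -0.34 in replicate 1 and 0.05 in replicate 2. Of the 34 genes, 29 were lower with BIO in replicate 1, but only 15 were lower in replicate 2. Over all genes tested 53.6% and 49.8% were lower on these arrays.

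**Figure D2:**
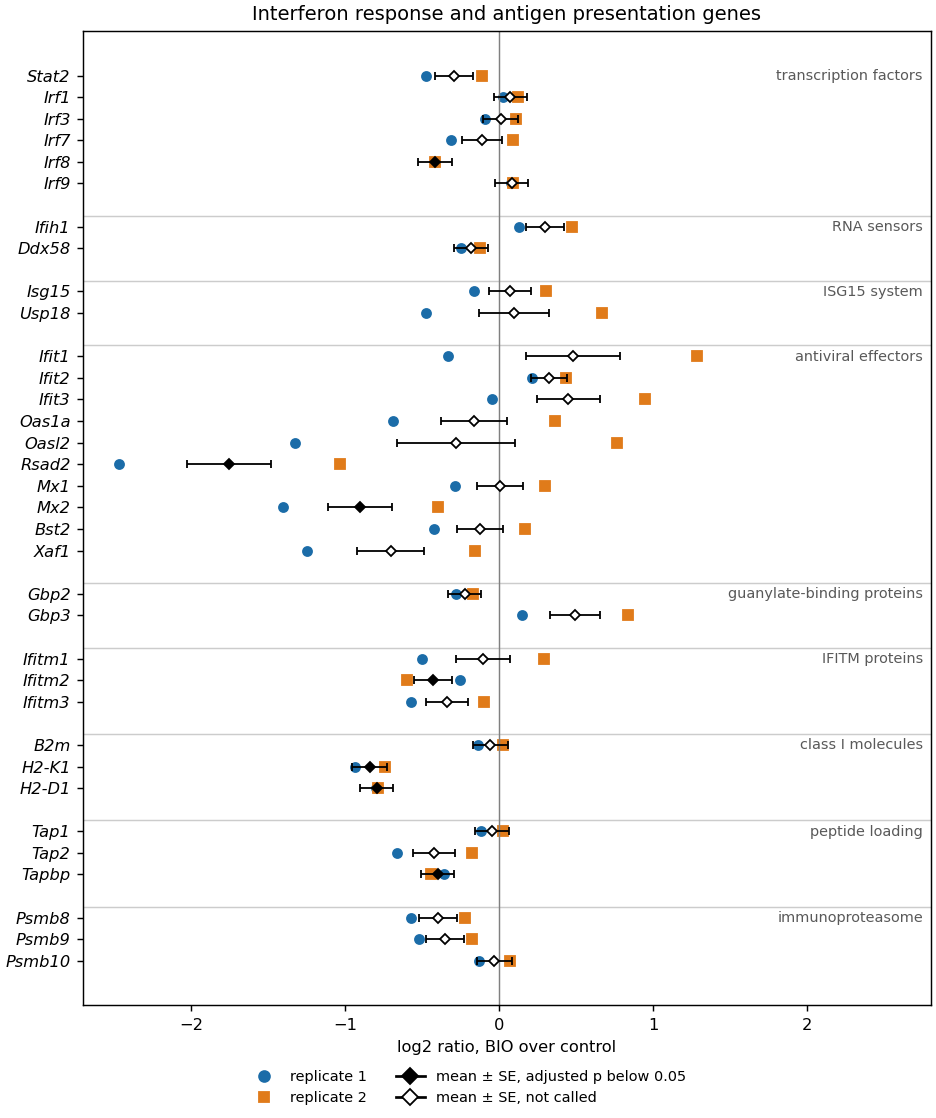
Log2 ratios of BIO over control for the 34 genes, grouped by role. The circle is the ratio of replicate 1 and the square that of replicate 2. The diamond with its bar is the mean ± moderated SE of limma (n = 2 arrays), filled where the adjusted p was below 0.05. Among the genes that fell, the ratios of H2-D1, Irf8 and Tapbp lie 0.01, 0.00 and 0.09 apart on the arrays and those of H2-K1 lie 0.19 apart. Of all 34 genes, those with ratios more than 1 apart are Oasl2, Ifit1, Rsad2, Usp18, Xaf1, Oas1a and Mx2.

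The transcription factors were described first. Stat2 and Irf9 are subunits of the complex that binds the ISRE. The processed signal of Stat2 was 2782 without and 2042 with BIO on the array of replicate 1, and 2992 and 2808 on that of replicate 2, with a log2 ratio of -0.29 ± 0.12 (SE, adjusted p = 0.130, limma). Irf9 had signals of 1968 and 2084 in replicate 1 and of 2281 and 2511 in replicate 2, with a log2 ratio of 0.08 ± 0.11. Neither gene was called as changed. Irf1, a factor induced by type II interferon, and Irf3, which switches on interferon genes after virus sensing, had log2 ratios of 0.07 and 0.01 and were not called either. Irf7, which amplifies type I interferon production, was near background, with signals between 5.94 and 23.4 over the 4 channels, and in replicate 1 its BIO channel was not well above background.

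Irf8 was the exception among the 6 factors. Its product is required for the development of macrophages and dendritic cells. The signal was 341 without and 265 with BIO on the array of replicate 1, and 395 and 306 on that of replicate 2, so both BIO signals lay below both control signals. On both arrays the log2 ratio was -0.42, and the mean of -0.42 ± 0.11 (SE, adjusted p = 0.0263, limma) corresponds to a 1.34-fold lower level. The adjusted p was 0.0923 with the processed signals and 0.0738 after median centering in place of loess. The probe lies on chromosome 8 at 123280324 to 123280383 (mm9). Macrophage markers fell in the same RNA (9 of 14 tested, median -0.50), and their part in the ratio of Irf8 was not tested.

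The cytoplasmic RNA sensors were not called. Ifih1 encodes MDA5 and Ddx58 encodes RIG-I. Ifih1 had signals of 73.0 and 92.1 in replicate 1 and of 109 and 165 in replicate 2, with a log2 ratio of 0.30 ± 0.12 (SE, adjusted p = 0.120). Ddx58 had signals of 1526 and 1305 in replicate 1 and of 1711 and 1619 in replicate 2, and its log2 ratio was -0.18 at its brightest probe and -0.23 at a second one.

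Isg15 encodes a ubiquitin-like protein that is attached to other proteins, and Usp18 encodes the protease that removes it and that also dampens receptor signaling. Isg15 had signals of 60.8 without and 57.4 with BIO on the array of replicate 1, and of 82.9 and 114 on that of replicate 2. The signal of Usp18 was 29.4 and 14.5 in replicate 1, where the BIO channel was not well above background, and 56.7 and 109 in replicate 2. Both genes thus had ratios of opposite sign on the arrays, -0.16 and 0.30 for Isg15 and -0.48 and 0.67 for Usp18, and neither was called.

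The 10 antiviral effectors showed the widest spread. The largest fall of the whole set was that of Rsad2, which encodes viperin, an enzyme that makes a chain-terminating nucleotide. Its signal was 399 without and 52.9 with BIO on the array of replicate 1, and 515 and 249 on that of replicate 2. Both BIO signals lay below both control signals, but the log2 ratio was -2.47 on the former array and -1.04 on the latter. The mean of both was -1.75 ± 0.27 (SE, adjusted p = 0.00294, limma), a 3.37-fold lower level, at a probe on chromosome 12 at 27127918 to 27127859 (mm9). Rsad2 was also the sole gene of the set that was at least 2-fold lower on both arrays with a signal of at least 100 in the brighter channel, a rule taken from the study's other array experiments. With the processed signals its log2 ratio was -1.98 at an adjusted p of 0.108, and with the score table -2.01 at 0.330.

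Mx2 encodes a dynamin-like GTPase, as does Mx1. The signal of Mx2 was 97.8 without and 24.9 with BIO on the array of replicate 1, and 133 and 95.7 on that of replicate 2. Its log2 ratios of -1.41 and -0.40 gave a mean of -0.90 ± 0.21 (SE, adjusted p = 0.0161, limma), and the probe lies on chromosome 16 at 97782327 to 97782386. The call was lost with the processed signals (adjusted p = 0.159), with the score table (0.393) and without the filter on dim probes (0.0546). A second probe of Mx2 was too dim to be tested. It had signals between 8.66 and 12.3 over the 4 channels and log2 ratios of -0.17 and -0.04. Mx1 had signals of 7.02 and 2.65 in replicate 1 and of 25.9 and 39.3 in replicate 2, and its mean log2 ratio was 0.00. Its BIO channel was not well above background in replicate 1.

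Xaf1, whose product antagonizes an inhibitor of apoptosis, had a pattern like that of Mx2. Its signal was 100.03 without and 29.2 with BIO on the array of replicate 1, and 119 and 111 on that of replicate 2. The mean log2 ratio of -0.70 ± 0.22 (SE) had an adjusted p of 0.0512 and was therefore not called. It was called with median centering in place of loess (0.00434) and when the probes of each gene were averaged (0.0425).

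The IFIT genes, which stand side by side on chromosome 19 and encode proteins that bind viral RNA, had mean ratios above 0, and none of the 3 was called. Ifit1 had a signal of 9.94 in control and 3.68 with BIO in replicate 1, where the BIO channel was not well above background, but 40.1 and 143 in replicate 2. The log2 ratios of -0.33 and 1.29 gave a mean of 0.48 ± 0.30 (SE, adjusted p = 0.305), and the gene was called as risen after median centering (0.0339). Ifit3 had signals of 35.5 and 37.3 in replicate 1 and of 114 and 253 in replicate 2, and its log2 ratio averaged 0.45 ± 0.20 (SE, adjusted p = 0.157). Ifit2 was the member of this family with a ratio above 0 on both arrays. Its signal was 198 without and 258 with BIO on the array of replicate 1, and 222 and 327 on that of replicate 2, so both BIO signals lay above both control signals, and its log2 ratio was 0.32 ± 0.11 (SE, adjusted p = 0.0791).

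Oas1a encodes a synthase of 2′-5′-linked oligoadenylates, which activate an RNase, and Oasl2 encodes a related protein. Both were lower with BIO in replicate 1 and higher in replicate 2. The signal of Oasl2 was 121 without and 35.0 with BIO on the array of replicate 1, and 169.7 and 316 on that of replicate 2. Its log2 ratios, -1.33 and 0.77, lay farther apart than those of any other of the 34 genes, and the mean was -0.28 ± 0.38 (SE, adjusted p = 0.656). Oas1a had signals of 197 and 122 in replicate 1 and of 209 and 294 in replicate 2, with log2 ratios of -0.69 and 0.36. A second probe of Oas1a had -0.19 and -0.09. Bst2, which encodes the membrane tether tetherin, had -0.42 and 0.17.

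**Figure D3:**
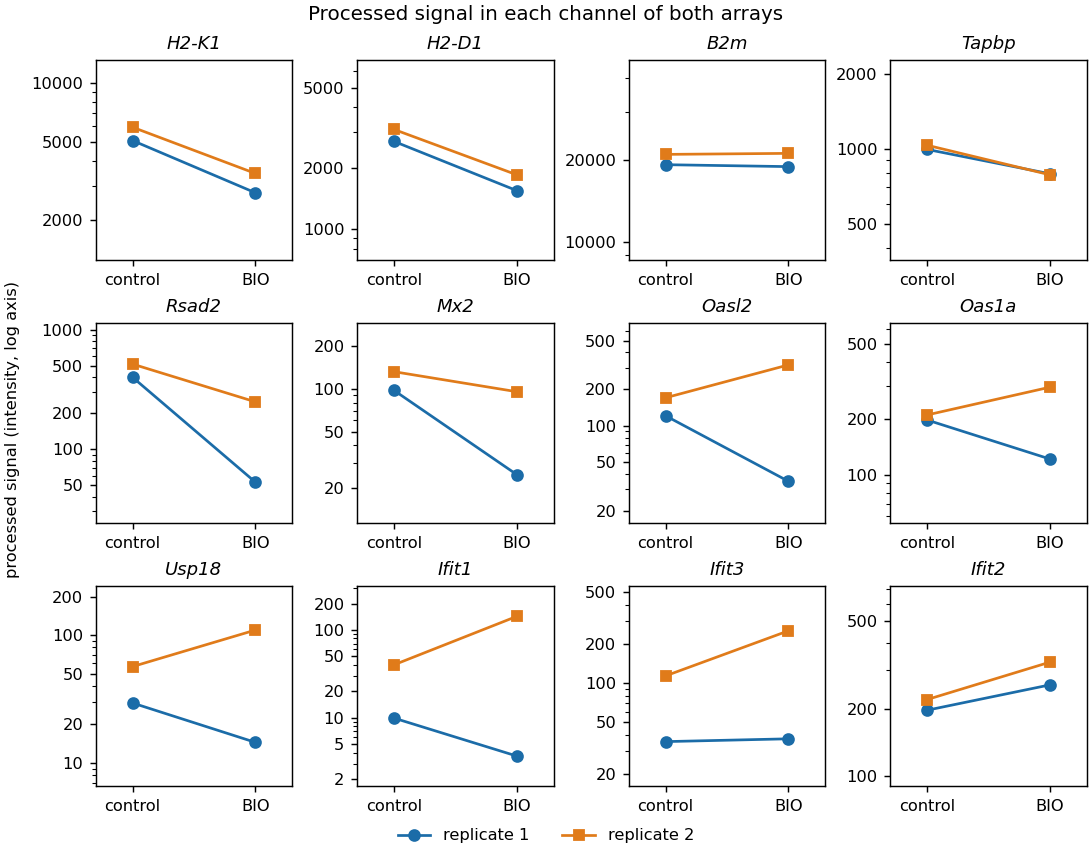
Processed signals of 12 of the genes in the control and the BIO channel, on log axes, with a line for each array (circles, replicate 1, and squares, replicate 2). The lines of H2-K1, H2-D1 and Tapbp fall on both arrays and those of B2m are nearly flat. The lines of Oasl2, Oas1a, Usp18 and Ifit1 run downward in replicate 1 and upward in replicate 2. Signals were not scaled between arrays.

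The guanylate-binding proteins are large GTPases that act on membranes of intracellular microbes. Gbp3 had signals of 98.1 without and 125 with BIO on the array of replicate 1, and of 148 and 302 on that of replicate 2. Its log2 ratio of 0.49 ± 0.16 (SE, adjusted p = 0.0609) was the highest mean of the 34 genes. Gbp3 was called as risen only when the probes of each gene were averaged (0.0496). There its own ratios stay as they are, while fewer features are tested and the common variance is fitted anew. Gbp2 had a log2 ratio of -0.23.

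The IFITM proteins block fusion of viruses with cell membranes. The signal of Ifitm2 was 17798 without and 16188 with BIO on the array of replicate 1, and 19164 and 12805 on that of replicate 2. The mean log2 ratio was -0.43 ± 0.12 (SE, adjusted p = 0.0392, limma), at a probe on chromosome 7 at 148140940 to 148140881. The call lay close to the threshold and was lost with the processed signals, median centering, an offset of 16, the score table and no filter (adjusted p from 0.0591 to 0.558). Ifitm3 had -0.58 and -0.10 on the arrays and Ifitm1 -0.50 and 0.29, and neither was called. The probes of Ifitm1, of which there were 2, share a run of 54 of their 60 bases and so do not check each other.

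In the 9 genes of class I presentation the arrays lay closer together, with a median difference of replicate 2 over replicate 1 of 0.19, against 0.48 in the 25 interferon response genes. Over all genes tested it was 0.05. All 9 were lower with BIO in replicate 1 and 6 of 9 in replicate 2, beside 53.6% and 49.8% of all genes tested. Of the 9 genes 3 fell and 0 rose, beside 14.8% and 9.14% of all genes tested, and the median log2 ratio was -0.40. H2-K1 and H2-D1 encode the heavy chains of classical class I molecules. H2-K1 had a signal of 5087 without and 2756 with BIO on the array of replicate 1, and of 5949 and 3459 on that of replicate 2. H2-D1 had a signal of 2710.5 and 1549 in replicate 1 and of 3105 and 1854 in replicate 2. For both genes, both BIO signals lay clearly below both control signals.

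On the log2 scale H2-K1 had ratios of -0.94 and -0.74, averaging -0.84 ± 0.11 (SE, adjusted p = 0.00141, limma), a 1.79-fold lower level. Its probe lies on chromosome 17 at 34133114 to 34133055 (mm9), and a second probe at 34134043 to 34133984 gave -0.69 at an adjusted p of 0.00310. H2-D1 had ratios of -0.80 and -0.79, averaging -0.79 ± 0.11 (SE, adjusted p = 0.00148), a 1.73-fold lower level, at a probe on chromosome 17 at 35403886 to 35403945. Both calls held under each alternative with a test except the score table, where the adjusted p was 0.102 for H2-K1 and 0.0536 for H2-D1. The longest run shared by a probe of H2-K1 and that of H2-D1 was 6 of 60 bases, but whether these probes also bind transcripts of other class I genes was not tested.

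B2m, which encodes the light chain that pairs with every class I heavy chain, was not called. Its signal was 19229.8 without and 18920.4 with BIO on the array of replicate 1, and 20981 and 21162 on that of replicate 2. The log2 ratio was -0.06 ± 0.11 (SE, adjusted p = 0.764), so that a heavy chain and a light chain that are displayed together had different ratios, a difference that was not itself tested.

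Tapbp encodes tapasin, which bridges class I molecules to the peptide transporter made of Tap1 and Tap2. The signal of Tapbp was 995 without and 794 with BIO on the array of replicate 1, and 1035 and 787 on that of replicate 2. Its log2 ratio was -0.40 ± 0.11 (SE, adjusted p = 0.0317, limma), at a probe on chromosome 17 at 34065963 to 34066022. The call was lost with the processed signals, median centering, an offset of 16 and the score table (adjusted p from 0.0518 to 0.160). Tap2 had signals of 32.8 and 12.9 in replicate 1, where the BIO channel was not well above background, and of 33.6 and 25.9 in replicate 2, with a log2 ratio of -0.42 at an adjusted p of 0.0598. Tap1 had a log2 ratio of -0.05.

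Psmb8, Psmb9 and Psmb10 encode the catalytic subunits that replace their constitutive partners in the immunoproteasome. Psmb8 had signals of 34.3 without and 16.8 with BIO on the array of replicate 1, and of 45.2 and 34.8 on that of replicate 2, with a log2 ratio of -0.40 ± 0.12 (SE, adjusted p = 0.0514). Psmb9 had a similar ratio of -0.35 (adjusted p = 0.0772) at signals of 43.6 and 24.7 and of 54.4 and 46.4. Psmb10 had signals between 1567 and 1945 over the 4 channels, and its log2 ratio was -0.03. Of the 3 constitutive partners, Psmb5 fell by 0.37 and the median was -0.36, beside -0.35 for the 3 immunoproteasome genes.

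Genes outside the list were counted by pathway step. The counts here and below are to be read beside the 14.8% of all genes tested that were called as lower and the 9.14% called as higher. Of 10 interferon genes, 8 were on the array and 4 were tested, of which 0 rose and 0 fell at adjusted p values from 0.362 to 0.658. Ifnb1 and Ifng, named here after their values were seen, were not well above background in any channel. Of 9 receptor and kinase genes 3 fell and 0 rose. These were Jak1 with -0.77, Stat3 with -0.68 and Il10rb with -0.61, which encode a kinase, a transcription factor and a receptor chain. Of 14 sensor and adaptor genes, Mb21d1, which encodes the DNA sensor cGAS, rose by 0.51, whereas Irf5 with -0.72, Tmem173 with -0.70 and Tlr3 with -0.63 fell, the last at BIO signals that were well above background in 1 of the 2 replicates. Tmem173 encodes STING, the partner of cGAS, and Tlr3 an endosomal RNA receptor.

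Of 36 further induced genes tested, 4 rose and 8 fell, beside 9.14% and 14.8% of all genes tested, and the median was -0.08. The largest rises were those of Dtx3l with 0.81, Cxcl10 with 0.69 and Parp9 with 0.66. Dtx3l and Parp9 encode a ubiquitin ligase and its partner, and Cxcl10 a chemokine. The largest falls were those of Nmi with -1.01, Rtp4 with -0.98 and Ifi27 with -0.95. Of 8 negative regulators 3 fell, which were Irf2 with -0.68, Trim30a with -0.47 and Ptpn6 with -0.41, and 0 rose.

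Of 15 further genes of the class I pathway 6 fell and 0 rose, with a median of -0.26. The largest falls were those of the class I genes H2-Q7 with -0.84 and H2-T23 with -0.77 and of Calr with -0.71, which encodes the chaperone calreticulin. The remaining class I heavy chain genes that were not called ranged from H2-Q10 with -0.23 to H2-T10 with 0.34, named here after their values were seen. Of 10 tested class II genes, whose products display peptides taken up from outside the cell, 0 rose and 0 fell. Their median was -0.04, and H2-Aa was not well above background in any channel.

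The ratios of the arrays lay far apart in many of these genes. The ratio of replicate 2 lay above that of replicate 1 in 31 of the 34 genes, or 91.2%, against 58.6% of all genes. The ratios of the 2 arrays differed by more than 1 on the log2 scale in 7 of the 34 genes, against 0.676% of all genes tested. These 7 were Oasl2, Ifit1, Rsad2, Usp18, Xaf1, Oas1a and Mx2, of which 6 are among the 10 antiviral effectors. The difference of Oas1a was not seen at its second, dimmer probe, with -0.19 and -0.09. For Ifit1 and Usp18 the BIO channel was not well above background in replicate 1. In all 10 effectors the ratio was higher in replicate 2, and their median was -0.56 in replicate 1 and 0.33 in replicate 2. No class I presentation gene differed by more than 1. Among the other lists, 0 of the 36 further induced genes and 0 of the 14 macrophage markers differed by more than 1, while 2 of the 12 endothelial markers did, and the ratio was higher in replicate 2 in 29, 14 and 11 of these genes. Of 10 markers of the ureteric mesenchyme 1 differed by more than 1, and the ratio was higher in replicate 2 in 5. Further lists ran both ways, from 0 of 6 erythroid genes and 4 of 10 class II genes to 8 of 8 negative regulators.

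This spread did not depend on 1 way of making the ratios. The processed signals gave 8 genes that differed by more than 1, median centering 9, an offset of 16 gave 8 and the score table also gave 8, against 1.64%, 1.79%, 1.05% and 1.29% of all genes. The median of the effectors was below 0 in replicate 1 and above 0 in replicate 2 with each of these settings. The count for the macrophage markers did depend on the setting. Of the 14 tested, 4 differed by more than 1 with median centering, against 0 with the processed signals, the offset of 16 and the score table. The arrays differed in the pools of ureters and in the dye that marked BIO, and these cannot be told apart with 1 array per orientation.

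**Figure D4:**
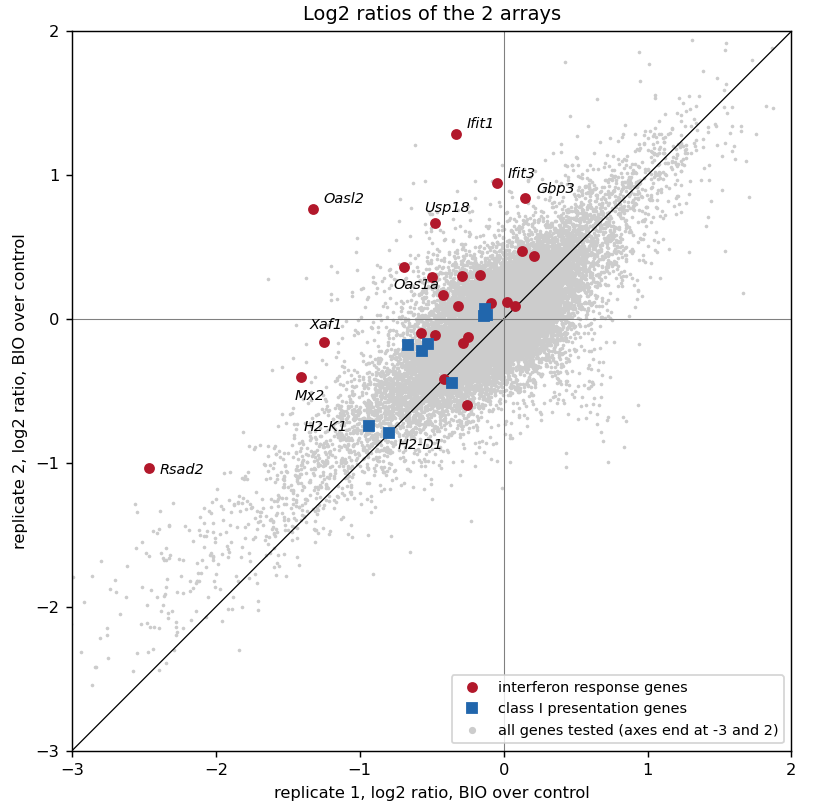
Log2 ratio of BIO over control in replicate 2 against that in replicate 1, for the interferon response genes (circles), the class I presentation genes (squares) and all genes tested (grey dots). The diagonal marks equal ratios. Of the 34 genes 31 lie above it, and the circles of Oasl2, Ifit1, Usp18, Oas1a, Rsad2, Xaf1 and Mx2 lie farthest from it.

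The ratios were also set against the promoter letters. The 14 genes with an ISRE core had a median log2 ratio of -0.15 and 2 of them fell, while the 16 without had a median of -0.20 and 4 fell. Those without lack only the exact letters searched for. They include H2-K1 and H2-D1, which hold the IRF core and are among the 4 that fell. With the IRF core the order was the other way, with a median of -0.18 and 4 falls in the 17 genes that have it and a median of -0.10 and 2 falls in the 13 others. The median difference of replicate 2 over replicate 1 was 0.47 with and 0.20 without an ISRE core, and 0.35 both with and without the GAS letters. No test was made of these differences. Oasl2, with the widest difference, had none of the 3 sets of letters in its window, and Irf8, with equal ratios, had 2 GAS matches.

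Markers of the cell types in the explant moved at the same time. Of 16 macrophage markers 14 were tested, of which 9 fell and 0 rose, with medians of -0.74 in replicate 1 and -0.25 in replicate 2, and in all 14 the ratio was higher in replicate 2. The tested markers together had a signal of 11782 without and 7294 with BIO on the array of replicate 1, and of 13177 and 10971 on that of replicate 2, which is 61.9% and 83.3% of control. Cx3cr1, a receptor of tissue macrophages, fell by 1.75, Aif1 by 0.79 and Ptprc, the pan-leukocyte gene CD45, by 0.78. The markers did not all fall. Of the 5 not called, named here after their values were seen, Adgre1 had -0.04 and Mrc1 0.08. The others were C1qc with -0.41, Laptm5 with -0.36 and C1qb with -0.32. The defining markers Csf1r, C1qc and Tyrobp had control signals of 1653, 2266 and 1554 in replicate 1.

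All 12 endothelial markers fell, with a median of -1.76 and a summed signal at 22.4% and 32.4% of control. Kdr, the VEGF receptor gene, fell by 2.63 and Cdh5 by 2.32. Of 10 markers of the ureteric mesenchyme 7 fell, with a median of -0.64, and of 8 markers of the ureteric epithelium 6 fell. One of these, Upk1b, was not well above background with BIO in either replicate, so that its fall has no exact size. Of 6 erythroid genes 3 fell, with a median of -0.49. As the label of the tissue requires, all 10 mesenchymal and all 8 epithelial markers were bright enough to be tested, Upk1b only through its control channels, and 0 markers of these 5 cell types rose. The part of these cell types in the ratios of H2-K1, H2-D1, Irf8 and the antiviral genes was not tested.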

How the data were processed

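The arrays were Agilent 2-color designs with 60-base probes in 4 spots each, which the authors, per the file headers, quantified with Feature Extraction (version 10.7.3.1 in the submitters' processing notes). The deposited scanner tables hold spot intensities and local background intensities without normalization, and processed signal intensities, which the authors' software had background-subtracted and dye-normalized. The authors also deposited 1 score for every probe on each array, with 1 decimal, whose making is not stated. Its values track the fold change between BIO and control with a sign for the direction, its centering is unknown, and its median was 1 on both arrays. It served as an alternative only, and 0 of its value columns were left unused.

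In R 4.3.3, limma 3.58.1 was used. Mean intensities were background-corrected by normexp with an offset of 50 and loess-normalized within arrays. Control spots and outlier spots (3.49% and 3.16% of biological spots) were left out, 0 spots were saturated, and spots of a probe were averaged. The offset pulls ratios of dim probes toward 0. In control 80.9% and 73.7% of biological spots, and with BIO 70.1% and 78.1%, were well above background. Probes were tested (28824 of 39429) when well above background in more than a share of 0.5 of their spots in the control channels of both arrays or the BIO channels of both. Log2 ratios, turned to BIO over control, were compared with 0 in a two-sided moderated test (lmFit, eBayes), with p-values adjusted by Benjamini-Hochberg over these probes and a threshold of 0.05. A dye term would leave no residual degree of freedom. The median SE was 0.111, and the number of arrays limits the precision. Whether pools shared litters is not given in the sources used here. The p-values rest on these 2 arrays and on the variance of all tested probes, which has a weight of 7.14 degrees of freedom. They therefore do not measure the spread between the 2 arrays alone. Rsad2, with ratios of -2.47 and -1.04, has an SE of 0.27, and Irf8, with -0.42 on both arrays, has an SE of 0.11.

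Each gene is given by the gene name in the files and its brightest probe, in mm9 coordinates as in the files (descending on the minus strand). Of 44 probes of the 34 genes, 38 were tested, and the RefSeq accession of 39 names the same symbol. All 34 genes are named. Of 13 further lists, at most the 3 largest called rises and falls are named, with defining cell type markers and genes marked as named after their values were seen. The members and lists were chosen with earlier results of these data known. Alternatives were the processed signals (floor of 15), median centering, an offset of 16, no filter on dim probes, the score table, the mean of a gene's probes, counting probes, the study's rule of at least 2-fold on both arrays at a signal of at least 100, and each array alone. The script for the test was tested on simulated data.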

Additional observations from a re-analysis of the deposited data

How the results depend on the processing

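The number of genes that fell, 7, was 2 with the processed signals (H2-K1 and H2-D1), 2 with the score table (Gbp2 and Irf8), and 1 (Rsad2) under the rule of intensity and fold change, which has no test. It was 5 with median centering, an offset of 16 or no filter on dim probes, 8 when probes were counted and 10 with the mean of a gene's probes. The genes gained with that mean, Xaf1, Tap2 and Psmb8, have the same ratios as before, while fewer features are tested and the common variance is fitted anew. The number that rose, 0, was 1 with median centering (Ifit1), 1 with the mean of a gene's probes (Gbp3), 2 with the score table (Irf1 and Irf9) and 0 with the others. Of the probes in the score table, 19.9% had the same value on both arrays, which leaves no spread, so its tests are a poor guide. The cause of the differences between the settings was not tested. Over all genes, 23.9% were called in either direction, against 8.92% with the processed signals and 12.8% with median centering. The share was 20.8% with an offset of 16, 15.7% with no filter on dim probes and 15.1% with the score table. With the mean of a gene's probes it was 26.2%. The counts above are to be read beside these shares, which were not split by direction.

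The median log2 ratio of -0.15 lay between -0.25 and -0.10 with the settings that use both arrays. It was 0.05 without replicate 1 and -0.34 without replicate 2, so its sign rests on replicate 1. Across the 34 genes and 6 alternatives with a test, 18 calls were lost, 9 were gained and 0 were reversed in direction, while 12 ratios of genes without a call changed sign or came to 0. Control and BIO are paired within each array, and the test of the ratios against 0 uses this pairing, so no other paired analysis was made. The BIO channel of Irf7, Mx1, Ifit1, Usp18 and Tap2 was not well above background in replicate 1, which limits what can be said of these genes.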
